A study of Mus musculus with 6 samples.

Results

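The nuclear genes for respiratory complexes II, III, IV and V and for cytochrome c were compared between double knockout and control hearts of mouse embryos. The genes were chosen by symbol among the rows annotated as protein-coding: the 4 succinate dehydrogenase genes, Cyc1, Cycs and every gene whose symbol starts with Uqcr, Cox4 to Cox8 or Atp5. The choice gave 49 genes of the 48709 in the table. Complex II had 4 of them, complex III 9, complex IV 18 and complex V 17, and cytochrome c had 1. All are called subunit genes here for short. The counts and medians of complex V and of the whole set include Atp5s and Atp5sl, which share only the symbol stem. Of the 49, 48 had a mean value of at least 1 in a genotype and were tested. Cox8c, a complex IV subunit known from testis, was at 0 in all 6 libraries.

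Polyadenylated RNA of whole C57BL6/J hearts was sequenced in 3 libraries of each genotype. The double knockouts were RBPMS flox/flox RBPMS2 flox/flox with the XML Cre transgene, which the design text calls specific to cardiomyocytes. The targeted genes, Rbpms and Rbpms2, encode related RNA-binding proteins. The controls were littermates with those alleles and no Cre listed. Because no group carried Cre with intact genes, effects of Cre cannot be told apart from those of the deletions. The sources used here give no embryonic stage. Nor do they say how many animals the libraries stem from. In each genotype the library numbered 3 differed in sex pattern from libraries 1 and 2, so a genotype's libraries did not all come from the same source, while whether libraries 1 and 2 came from separate animals is not known. In whole hearts, fewer cardiomyocytes and less RNA per cardiomyocyte cannot be told apart.

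The respiratory chain sits in the inner mitochondrial membrane. Complex II takes electrons from succinate in the citric acid cycle and passes them to coenzyme Q, complex III passes them from coenzyme Q to cytochrome c, complex IV passes them to oxygen, and complex V, the ATP synthase, uses the proton gradient to make ATP. Heart muscle is among the tissues richest in these complexes, and several complex IV subunits exist in a ubiquitous form and a form of heart and skeletal muscle that replaces it as the muscle matures.

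Values are normalised read counts, which the authors scaled by 1 factor per library, and log2 fold changes are differences of mean log2(value + 1), double knockout minus control. The reads behind a library were estimated at 18760280 to 21991535. Rbpms was at 721, 699 and 670 in the knockout libraries, against 3551, 3853 and 3956 in the controls (log2 fold change -2.44, limma adjusted p = 6.83e-13). Rbpms2 was at 1676, 1257 and 1429 in the knockout libraries, against 2444, 2571 and 2716 in the controls (log2 fold change -0.83, limma adjusted p = 2.92e-05). Both targeted genes were thus lower in every knockout library. The libraries numbered 3 stood apart from the others in sex: Xist, transcribed from the inactive X chromosome, was at 20 in knockout 3 and at 6 in control 3, against 19501 or more elsewhere. The libraries numbered 2 stood apart in short genes, as described with the coding lengths. Heart identity was clear from the cardiomyocyte markers Tnnt2, Myh6, Myh7, Actn2, Ttn, Nkx2-5, Ryr2 and Tnni3, whose summed level was 409884 to 513792 in the knockout libraries and 516822 to 580259 in the controls. These sums did not overlap, and 1 of the 8 markers, Myh6, passed the test (log2 fold change -0.82, limma adjusted p = 1.68e-05). Without Myh6 the sums overlapped, at 334650 to 423661 in knockouts and 381257 to 430905 in controls. Myh7, with a mean of 212619 in knockouts and 208894 in controls, made up much of those sums. By gene, 7 of the 8 markers had a log2 fold change below 0, against 48.1% of all genes tested, and the median was -0.14. In Myh6, Tnnt2 and Nkx2-5 every knockout library lay below every control library, where the share over all genes was 10.6%.

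Of the 48 subunit genes tested, 5 fell in the double knockout at a limma adjusted p under 0.05, and 0 rose. Among all 26747 genes tested, 2.55% were called lower and 2.31% higher, 4.86% in all. Of the 17232 tested genes that are protein-coding, as the subunit genes are, 3.63% were called lower. The 5 genes were Cyc1, Uqcrc1 and Uqcrfs1 of complex III, Cox7a1 of complex IV and Atp5g1 of complex V. At an unadjusted p under 0.05, 15 subunit genes were lower and 0 were higher, where 9.0% of all genes were lower. The shift was small and broad: 45 of the 48 genes had a log2 fold change below 0, against 48.1% of all genes tested, and the median was -0.16, against 0.02 over all genes tested. Every knockout library lay below every control library in 14 of the 48 genes, where the share over all genes was 10.6% and over protein-coding genes 13.7%. No subunit gene showed the opposite order, which 11.1% of all genes did.

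The number of calls rested on single libraries and on how variances were moderated. With no robust moderation, limma called 0 subunit genes, where 0.77% of all genes were called lower. At an unadjusted p under 0.05, 13 subunit genes were lower in that fit, against 8.98% of all genes. The count was 0 also without knockout 3 (1.11% of all genes called lower), without control 1 (0.966%) and without control 3 (0.859%). In these fits 13, 9 and 10 subunit genes were lower at an unadjusted p under 0.05, against 7.20%, 6.45% and 6.06% of all genes. With no filter on low values, limma called 10, where 2.72% of all genes were called lower. The count was 3 without knockout 1 (2.7% of all genes called lower), 5 without knockout 2 (2.21%) and 6 without control 2 (1.7%). Without both libraries numbered 3, which leaves the female-pattern libraries, limma called 0 subunit genes against 0.0868% of all genes called lower. In that fit 7 subunit genes were lower at an unadjusted p under 0.05, against 4.97% of all genes, and the median was -0.08. Without both libraries numbered 2, limma called 10 subunit genes lower against 0.705% of all genes, and the median was -0.31. Across these fits the median of the subunit genes kept its sign, while the genes that passed changed with the libraries. None of the 5 calls held without both libraries numbered 3.

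**Figure D1:**
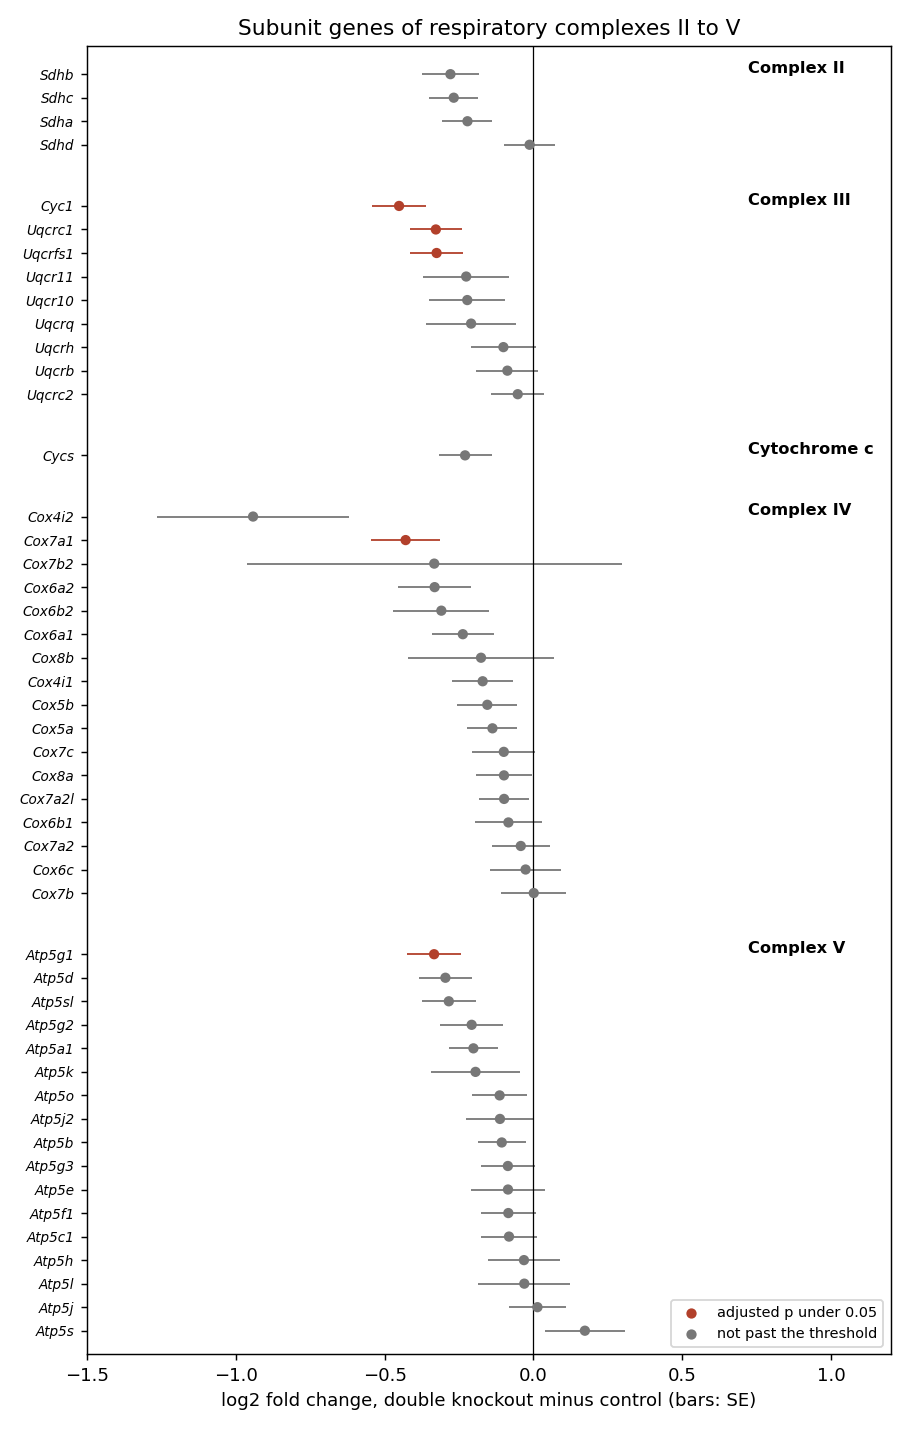
Log2 fold change (double knockout minus control, x axis) of the 48 tested subunit genes, grouped by complex from top to bottom and ordered by fold change within each. Points are limma estimates, bars are the SE, and red marks the 5 genes past the threshold; 45 of 48 points lie left of 0.

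In complex II no gene passed the test. Sdha, the flavoprotein that oxidises succinate, was at 9818, 8560 and 9731 in the knockout libraries, against 11068, 10916 and 10733 in the controls (log2 fold change -0.22, limma adjusted p = 0.147). Sdhc, a membrane anchor that holds the haem with Sdhd, was at 3096, 2923 and 3005 in knockouts, against 3707, 3396 and 3770 in controls (log2 fold change -0.27, limma adjusted p = 0.071). The groups did not overlap in either gene. Sdhb, the iron-sulfur subunit, had values of 3799, 4465 and 3839 in knockouts and 5161, 4308 and 5231 in controls (log2 fold change -0.28, limma adjusted p = 0.106), and knockout 2 lay above control 2. Sdhd, the other membrane anchor, was at 5178, 5873 and 5557 in knockouts and 5815, 5194 and 5747 in controls. Its log2 fold change of -0.01 stood apart from the other subunits of the complex, although a difference between subunits was not tested.

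Complex III held 3 of the 5 calls. Cyc1 encodes cytochrome c1, the haem protein that hands electrons to cytochrome c (mm10 chromosome 15, 76343523 to 76346260, plus strand). It was at 5374, 4720 and 4592 in the knockout libraries, against 6635, 6206 and 7234 in the controls. The highest knockout library lay below the lowest control. The means were 4895 ± 419 in knockouts and 6692 ± 516 in controls (SD, n = 3 each), 26.8% lower, with a log2 fold change of -0.45 (SE 0.09, limma adjusted p = 0.00515). The call was lost without knockout 3 (limma adjusted p = 0.0574), without control 1 (0.0554) and without control 3 (0.0732), and in the fit with no robust moderation (0.0654).

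Uqcrfs1, the Rieske iron-sulfur protein that takes the first electron from coenzyme Q, lies on mm10 chromosome 13 (30540308 to 30545362, minus strand). Its values were 4128, 3868 and 4371 in knockouts, against 5308, 4713 and 5489 in controls, with no overlap. It averaged 4122 ± 252 in knockouts and 5170 ± 406 in controls (SD, n = 3 each), or -0.33 on the log2 scale (limma adjusted p = 0.0376). Uqcrc1, a core subunit facing the matrix (mm10 chromosome 9, 108936633 to 108949623, plus strand), was at 6827, 5783 and 6029 in knockouts, against 7912, 7269 and 8185 in controls. Here too the groups did not overlap. The means were 6213 ± 546 in knockouts and 7789 ± 470 in controls (SD, n = 3 each), or -0.33 on the log2 scale (limma adjusted p = 0.0372). Both calls were lost in the fit with no robust moderation, at limma adjusted p = 0.115 for Uqcrfs1 and 0.121 for Uqcrc1. The Uqcrfs1 call was also lost without any single library other than control 2, with a highest limma adjusted p of 0.232. The Uqcrc1 call was lost without control 1, control 3, knockout 2 or knockout 3, with a highest limma adjusted p of 0.222. With the GC and length trend removed, the Uqcrc1 log2 fold change was -0.20 and the call was lost (limma adjusted p = 0.0596). Without both libraries numbered 2, limma adjusted p was 0.0644 for Cyc1, 0.0684 for Uqcrfs1 and 0.0937 for Uqcrc1, at log2 fold changes of -0.48, -0.35 and -0.33.

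The remaining core subunit of complex III did not follow these values. Uqcrc2, the partner of Uqcrc1 in the matrix arm, was at 6749, 7579 and 7713 in knockouts and at 8101, 6975 and 7791 in controls, or -0.05 on the log2 scale (limma adjusted p = 0.791). The 5 accessory subunits Uqcr10, Uqcr11, Uqcrb, Uqcrh and Uqcrq, small proteins around the core, had log2 fold changes of -0.23 to -0.09, and none of them passed. In each of them knockout 2 was the highest or second highest knockout library and control 2 the lowest control. Over the 8 core subunits of complexes II and III the median log2 fold change was -0.27, and the groups did not overlap in 5, where 10.6% of all genes had every knockout below every control. Over the 5 accessory subunits the median was -0.21, and the groups overlapped in all 5. The accessory genes also have shorter coding lengths, 168 to 333 nt against 477 to 1992 nt in the core genes. The part of length in this difference was not tested.

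Cytochrome c itself, the mobile carrier between complexes III and IV, was at 5888, 6377 and 6567 (Cycs) in knockouts, against 7785, 6581 and 7760 in controls. The groups were separated only by the gap between knockout 3 and control 2. The log2 fold change was -0.23 (limma adjusted p = 0.160), and it was -0.36 (limma adjusted p = 0.0122) once the trend with GC content and transcript length was removed.

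Complex IV had 17 tested genes, a median log2 fold change of -0.15 and 1 call. That call was Cox7a1, the heart and skeletal muscle form of subunit VIIa (mm10 chromosome 7, 30184144 to 30186078, plus strand). It was at 433, 485 and 434 in knockouts, against 648, 498 and 691 in controls. Control 2 lay just above knockout 2, and the other controls were clearly higher. The means were 451 ± 29.7 in knockouts and 612 ± 101 in controls (SD, n = 3 each), or -0.43 on the log2 scale (SE 0.11, limma adjusted p = 0.0357). The call was lost without knockout 1, knockout 3, control 1 or control 3 (highest limma adjusted p = 0.264) and in the fit with no robust moderation (0.149). It held without both libraries numbered 2, at a limma adjusted p of 0.032. Of the 5 skeletal muscle markers Myod1, Myog, Myf5, Pax7 and Myh3, 4 had a mean under 5 in each genotype and Pax7 was at 0 throughout. Their summed level was 36 to 40 in knockouts and 24 to 36 in controls.

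The ubiquitous form Cox7a2 did not pass. Its values were 3804, 4685 and 4265 in knockouts and 4618, 3873 and 4642 in controls, or -0.04 on the log2 scale (limma adjusted p = 0.848), which turned to 0.04 with the GC and length trend removed. The log2 ratio of Cox7a1 to Cox7a2 was -3.13, -3.27 and -3.29 in the knockout libraries, against -2.83, -2.96 and -2.75 in the controls. Every knockout ratio was below every control ratio. The mean ratio was -3.23 ± 0.09 in knockouts and -2.84 ± 0.11 in controls (SD, n = 3 each), a difference of -0.39. A two-sided exact permutation test gave p = 0.1, the smallest that 3 against 3 libraries allow (0.333 after Benjamini-Hochberg adjustment over 5 isoform pairs). On a scale of reads per kilobase of the principal transcript, Cox7a1 made up 15.1% ± 0.783 of the pair in knockouts and 18.9% ± 1.12 in controls.

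The other muscle forms showed no such separation. Cox6a2, the heart and skeletal muscle form of subunit VIa, was at 1285, 1744 and 1211 in knockouts, against 1831, 1580 and 1872 in controls (log2 fold change -0.33, limma adjusted p = 0.149). Cox6a1, its ubiquitous counterpart, was at 3505, 4163 and 3433 in knockouts, against 4468, 3741 and 4909 in controls (log2 fold change -0.24, limma adjusted p = 0.218). In both genes knockout 2 lay above control 2 and the other libraries were separated by genotype. The log2 ratio of Cox6a2 to Cox6a1 averaged -1.40 ± 0.13 in knockouts and -1.31 ± 0.08 in controls (SD, n = 3 each; exact permutation p = 0.3, adjusted 0.375). Per kilobase, Cox6a2 made up 24.1% ± 1.67 of the pair in knockouts and 25.3% ± 0.988 in controls. Without both libraries numbered 2, the log2 fold changes were -0.57 for Cox6a2 (limma adjusted p = 0.0264) and -0.43 for Cox6a1 (limma adjusted p = 0.0489).

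Cox8b, the muscle form of subunit VIII, was at 61, 127 and 87 in knockouts and 108, 76 and 119 in controls (log2 fold change -0.18, limma adjusted p = 0.739). The ubiquitous Cox8a was at 5594, 6863 and 5742 in knockouts and 6603, 5925 and 6922 in controls (log2 fold change -0.10, limma adjusted p = 0.610). Their ranges overlapped, and so did the log2 ratio of Cox8b to Cox8a, with means of -6.09 ± 0.38 in knockouts and -6.01 ± 0.22 in controls (SD, n = 3 each; exact permutation p = 0.7, also 0.7 after adjustment). Cox8b made up 2.22% of that pair per kilobase in knockouts and 2.31% in controls.

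The remaining pairs have an alternative form that is not a heart muscle isoform. Cox4i2, known as the form of subunit IV used in lung and under low oxygen, was at 55, 50 and 20 in knockouts, against 76, 84 and 64 in controls. All knockout values were lower, with a log2 fold change of -0.94 and a wide SE of 0.32 (limma adjusted p = 0.136). Without knockout 3, its lowest library, the log2 fold change was -0.49, and without both libraries numbered 3 it was -0.60. The ubiquitous Cox4i1 was at 6786, 7991 and 7259 in knockouts and 9053, 6907 and 8976 in controls (log2 fold change -0.17, limma adjusted p = 0.396). The log2 ratio of Cox4i2 to Cox4i1 averaged -7.55 ± 0.79 in knockouts and -6.78 ± 0.39 in controls (SD, n = 3 each), with overlapping ranges (exact permutation p = 0.2, adjusted 0.333). The difference of -0.77 was -0.33 without knockout 3. Cox6b2, the form of subunit VIb known from testis, was at 74, 84 and 74 in knockouts, against 98, 90 and 100 in controls, with no overlap (log2 fold change -0.31, limma adjusted p = 0.309). Cox6b1 was at 4236, 5586 and 4823 in knockouts and 5628, 4350 and 5552 in controls, with a log2 fold change of -0.08. The log2 ratio of Cox6b2 to Cox6b1 averaged -5.96 ± 0.12 in knockouts and -5.73 ± 0.13 in controls (SD, n = 3 each; exact permutation p = 0.2, adjusted 0.333). Of the 5 pairs, Cox7a1 to Cox7a2 was the one in which the ratios of the genotypes did not overlap.

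**Figure D2:**
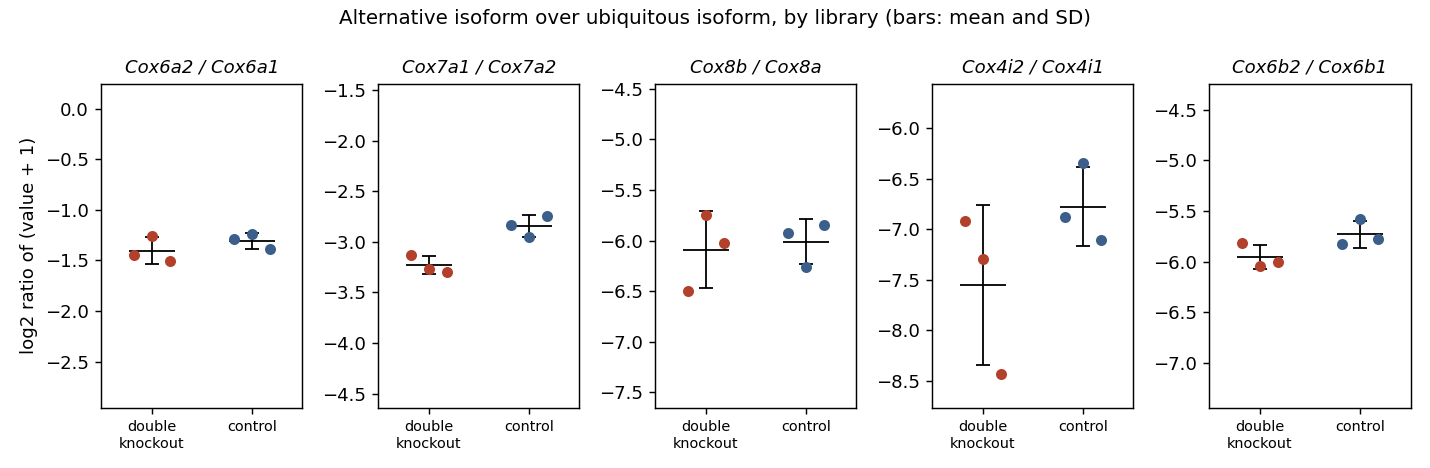
Log2 ratio of the alternative to the ubiquitous isoform (y axis, from value + 1) in each double knockout library (left, red) and control library (right, blue), with bars for the mean and SD of 3 libraries. The Cox7a1 to Cox7a2 ratios are separated at -3.29 to -3.13 in knockouts and -2.96 to -2.75 in controls, and the other 4 pairs overlap.

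The complex IV subunits with a single form, Cox5a, Cox5b, Cox6c and Cox7c, had log2 fold changes of -0.15 to -0.03, and the groups overlapped in all 4. Cox7b, a small subunit, marked the upper end of the complex at 4218, 5257 and 5220 in knockouts and 5298, 4139 and 5266 in controls, with a log2 fold change of 0.00. Cox7b2, an alternative form, was at 0 to 1 in knockouts and 0 to 3 in controls, too low to compare. Cox7a2l, described as a factor in supercomplexes of complexes III and IV, had a log2 fold change of -0.10 with overlapping groups. Its function in this strain was not examined.

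Complex V had 17 genes, a median log2 fold change of -0.11 and 1 call, Atp5g1. The gene encodes the c subunit of the rotating membrane ring, as do Atp5g2 and Atp5g3, and lies on mm10 chromosome 11 (96068852 to 96075670, minus strand). It was at 4377, 4641 and 4029 in knockouts, against 5545, 4938 and 5985 in controls, with no overlap. The means were 4349 ± 307 in knockouts and 5489 ± 526 in controls (SD, n = 3 each), or -0.33 on the log2 scale (limma adjusted p = 0.0396). The call was lost without knockout 1, knockout 3, control 1 or control 3 (highest limma adjusted p = 0.267), with no robust moderation (0.130), on equal library totals (0.0554) and with the GC and length trend removed (0.0751). The sister genes overlapped between genotypes. Atp5g3 had a log2 fold change of -0.09, with 10485, 11196 and 11765 in knockouts and 12122, 10602 and 12847 in controls. Atp5g2 had -0.21, with 3384, 4153 and 3239 in knockouts and 4346, 3597 and 4484 in controls. The 3 genes encode the same mature protein behind different import sequences.

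**Figure D3:**
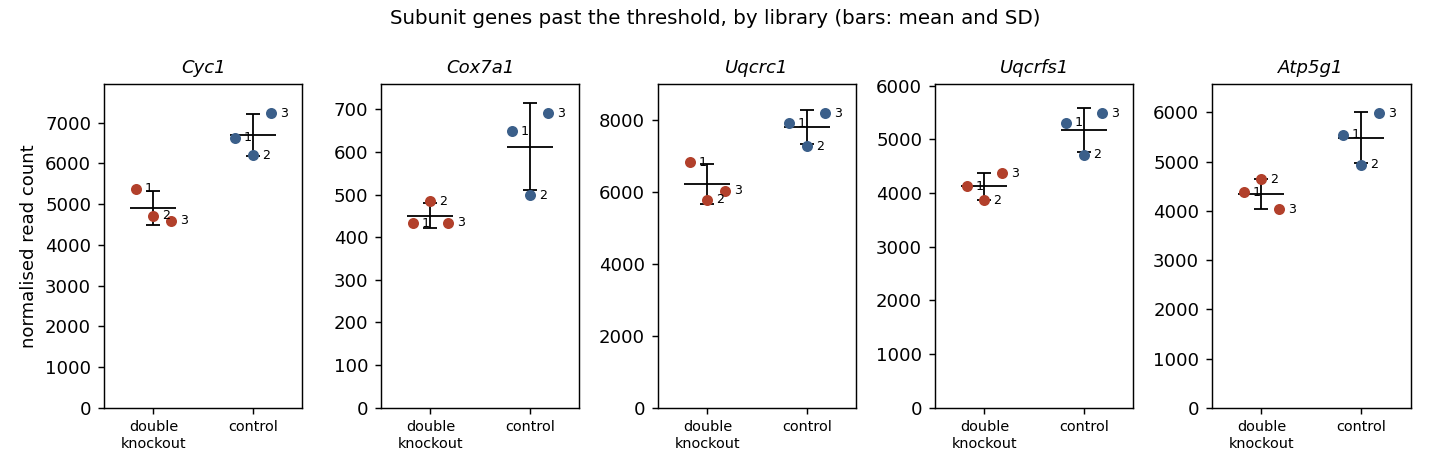
Normalised read count (y axis, from 0) of the 5 subunit genes past the threshold in each double knockout library (left, red) and control library (right, blue), numbered 1 to 3, with bars for the mean and SD. The groups do not overlap in any of the 5, which the test had picked from the same libraries, and control 2 is the lowest control in each.

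The catalytic head of the ATP synthase was measured at high values. Atp5b, the beta subunit with the catalytic sites, was at 52000, 54585 and 54787 in knockouts, against 59133, 55110 and 59534 in controls (log2 fold change -0.11, limma adjusted p = 0.504). Atp5a1, the alpha subunit, was at 38244, 33297 and 36959 in knockouts, against 41456, 40578 and 42552 in controls (log2 fold change -0.20, limma adjusted p = 0.189). In neither gene did the groups overlap, and neither passed the test. Atp5d, the delta subunit of the central stalk, was at 4255, 3780 and 3611 in knockouts, against 4651, 4511 and 5121 in controls, also without overlap (log2 fold change -0.30, limma adjusted p = 0.0626). Atp5c1 and Atp5e, the gamma and epsilon subunits of that stalk, had overlapping groups and log2 fold changes of -0.08 and -0.09.

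The peripheral stalk genes Atp5f1, Atp5h, Atp5j and Atp5o, which hold the head still against the ring, had log2 fold changes of -0.11 to 0.01, and the membrane subunits Atp5j2, Atp5k and Atp5l had -0.19 to -0.03. The groups overlapped in all 7. Atp5s and Atp5sl share the symbol stem, but RefSeq names them Dmac2l and Dmac2. Both were counted among the 48 genes. Atp5s was 1 of the 3 with a log2 fold change above 0, and Atp5sl was 1 of the 14 without overlap. Atp5s had the highest log2 fold change of the 48 genes, 0.17 (limma adjusted p = 0.519), with 185, 182 and 237 in knockouts and 168, 176 and 188 in controls. Atp5sl was at 670, 619 and 577 in knockouts, against 751, 754 and 764 in controls, without overlap (log2 fold change -0.28, limma adjusted p = 0.0826).

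Reads of some subunit genes may be shared with other annotated sequences, and how such reads were treated is unknown from the sources used. The table held 7 processed pseudogenes named after subunits, 3 of Atp5l, 2 of Uqcrh and 1 each of Atp5k and Cycs. Their summed level was 3615 to 4917 in knockouts and 3527 to 5026 in controls, and the highest, Atp5l2-ps, was at 1597, 2200 and 2014 in knockouts and 2190, 1502 and 2176 in controls. The values of Atp5l, Uqcrh, Atp5k and Cycs are uncertain at least to that extent. Pseudogenes of subunits under other names were not searched for. Gm12854, a processed pseudogene, overlaps Uqcrh on the opposite strand, with a mean of 1003 in knockouts and 1008 in controls. Several other subunits overlap a gene on the opposite strand, such as Cox6c with Vps13b, Atp5j with Gabpa, Atp5f1 with Wdr77 and Atp5a1 with Haus1, and the strand setting of the counting was not given either. None of the 5 called genes overlaps another annotated gene. The 13 protein-coding genes of mitochondrial DNA, which include cytochrome b and core subunits of complexes IV and V, were listed at 0 in all 6 libraries and could not be compared.

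Short and long subunit genes differed in how the libraries were ordered. Of the 47 with a mean of at least 50, 30 have a coding length under 500 nt and 17 have 500 nt or more, a limit chosen after the values were seen. In the short group, the median deviation from each gene's mean over 6 libraries (log2) was -0.22, 0.11 and -0.06 in knockouts 1 to 3 and 0.17, -0.16 and 0.17 in controls 1 to 3. Knockout 2 thus sat with the high controls and control 2 with the low knockouts, and knockout 2 exceeded control 2 in 25 of the 30 genes. In the long group the medians were -0.09, -0.09 and -0.10 in knockouts and 0.13, 0.03 and 0.16 in controls, separated by genotype, and knockout 2 exceeded control 2 in 7 of the 17. Every knockout lay below every control in 10 of the 17 long genes (58.8%) and in 4 of the 30 short ones (13.3%), where the shares were 18.2% of other long genes and 11.6% of other short genes. Called lower were 3 of the 17 long genes, against 4.79% of other long genes. Of the 30 short genes 2 were called lower, against 4.27% of other short genes. These other genes are protein-coding and have a mean of at least 50 too. The median log2 fold changes were -0.22 in long and -0.11 in short subunit genes. The median SD within a genotype was 0.12 in knockouts and 0.11 in controls for long genes, and 0.18 in knockouts and 0.20 in controls for short ones.

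The same 2 libraries stood apart in short genes outside the respiratory chain. Over 984 other protein-coding genes with a coding length under 500 nt the medians were -0.10, 0.07 and -0.01 in knockouts and 0.05, -0.10 and 0.11 in controls. Over 94 ribosomal protein genes they were -0.11, 0.09 and -0.07 in knockouts and 0.08, -0.16 and 0.16 in controls. Over 10807 longer genes they were 0.01, -0.02 and -0.00 in knockouts and -0.00, 0.03 and -0.00 in controls. Within the 47 subunit genes, Spearman's rho between coding length and the deviation of control 2 from the mean of controls 1 and 3 was 0.70, and for knockout 2 against knockouts 1 and 3 it was -0.67. With the log2 fold change between genotypes, rho was -0.17 for coding length and -0.42 for GC content. These are descriptions across genes, which share the libraries and are not replicates. Without both libraries numbered 2, the 10 genes that fell were Atp5g1, Atp5g2, Atp5k, Cox6a1, Cox6a2, Cox7a1, Sdhb, Uqcr10, Uqcr11 and Uqcrq, and 9 of them have a coding length under 500 nt. With the trend of GC content and transcript length removed from all 6 libraries, 6 genes fell (Cox7a1, Cyc1, Cycs, Sdha, Sdhc and Uqcrfs1), where 3.11% of all genes were called lower, and the median log2 fold change was -0.09. Cox7a1 was the subunit called in both of these fits and in the fit on all libraries. Whether the patterns with length and GC content came from RNA quality or library preparation was not tested.

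**Figure D4:**
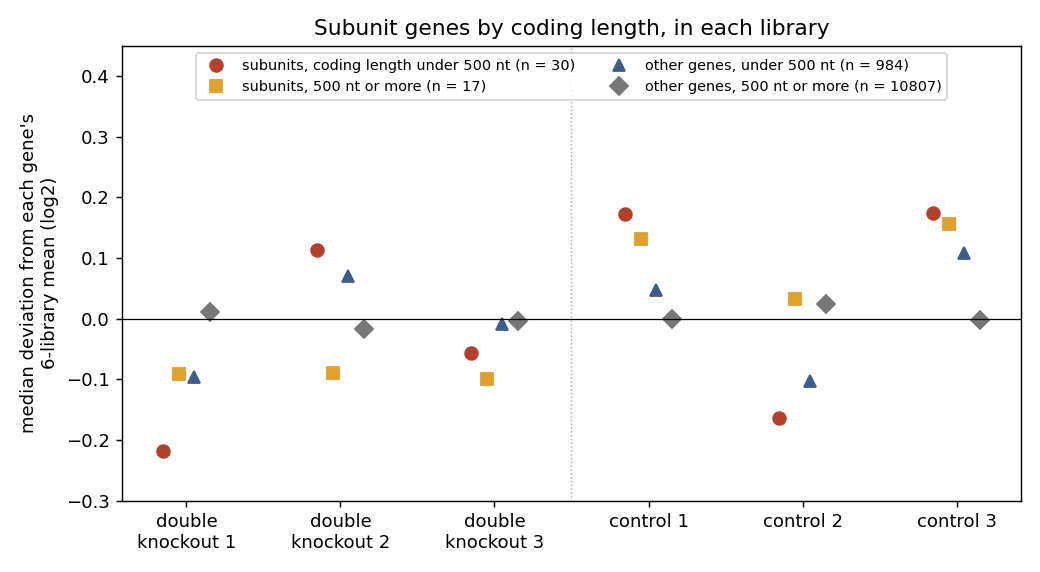
Median deviation from each gene's mean over the 6 libraries (y axis, log2) in double knockout libraries 1 to 3 (left) and control libraries 1 to 3 (right), for subunit genes and other protein-coding genes by coding length. Long subunit genes lie at -0.10 to -0.09 in knockouts and 0.03 to 0.16 in controls, while short ones are high in knockout 2 (0.11) and low in control 2 (-0.16).

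Promoters are shown for the called genes with an entry in the RefSeq promoter table (assembly GRCm38.p6), and for Cox7a2 and Cox6a1, ubiquitous isoforms that did not pass. Each line gives the 250 bases before the start annotated there, 5′ to 3′ on the gene's strand. The gene coordinates given above, from GENCODE M21, begin further upstream in each gene shown. The last bases of each line thus lie inside the GENCODE gene. For Uqcrc1 the line ends at 108936647 and the GENCODE gene starts at 108936633. Capitals mark matches, on either strand, to 7 motifs of factors known at respiratory genes or at promoters in general: NRF1 (GCGCA, any base, then GCGC), ETS factors such as GABP (CCGGAAG), estrogen-related receptors (AAGGTCA), YY1 (AANATGGCG), MEF2 (CTA, any 4 bases, then TAG), the CCAAT box (CCAAT) and the GC box (GGGCGG). Cyc1 is named only.
Uqcrc1 (chr9:108936398-108936647, plus): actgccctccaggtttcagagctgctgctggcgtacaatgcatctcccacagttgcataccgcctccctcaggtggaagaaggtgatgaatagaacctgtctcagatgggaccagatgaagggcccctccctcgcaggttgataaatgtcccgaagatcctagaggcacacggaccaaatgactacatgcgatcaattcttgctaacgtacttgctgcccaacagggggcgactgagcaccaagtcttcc
Uqcrfs1 (chr13:30545317-30545566, minus): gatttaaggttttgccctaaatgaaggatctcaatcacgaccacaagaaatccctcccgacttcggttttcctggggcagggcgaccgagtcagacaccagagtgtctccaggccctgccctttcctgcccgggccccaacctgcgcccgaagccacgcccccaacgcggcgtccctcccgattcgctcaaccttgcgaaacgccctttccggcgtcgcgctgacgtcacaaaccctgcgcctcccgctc
Cox7a1 (chr7:30183921-30184170, plus): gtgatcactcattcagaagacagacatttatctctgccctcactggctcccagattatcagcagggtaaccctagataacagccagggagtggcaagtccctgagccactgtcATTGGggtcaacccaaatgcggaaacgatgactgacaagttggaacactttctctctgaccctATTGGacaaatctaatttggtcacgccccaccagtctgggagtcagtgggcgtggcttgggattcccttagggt
Atp5g1 (chr11:96075632-96075881, minus): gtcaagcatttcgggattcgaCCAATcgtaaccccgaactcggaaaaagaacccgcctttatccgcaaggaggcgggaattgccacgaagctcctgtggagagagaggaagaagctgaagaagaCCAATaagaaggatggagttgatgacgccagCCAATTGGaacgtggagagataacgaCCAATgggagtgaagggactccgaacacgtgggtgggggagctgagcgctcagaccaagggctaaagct
Cox7a2 (chr9:79759854-79760103, minus): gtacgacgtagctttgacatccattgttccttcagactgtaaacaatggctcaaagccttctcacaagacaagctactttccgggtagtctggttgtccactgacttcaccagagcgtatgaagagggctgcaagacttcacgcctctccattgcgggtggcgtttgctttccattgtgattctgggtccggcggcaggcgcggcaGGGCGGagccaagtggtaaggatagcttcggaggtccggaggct
Cox6a1 (chr5:115348959-115349208, minus): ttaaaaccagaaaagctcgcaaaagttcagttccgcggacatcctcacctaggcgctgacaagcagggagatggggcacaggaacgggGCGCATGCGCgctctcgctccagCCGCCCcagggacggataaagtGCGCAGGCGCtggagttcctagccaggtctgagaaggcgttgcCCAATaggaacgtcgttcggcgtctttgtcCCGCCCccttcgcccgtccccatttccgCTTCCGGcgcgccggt
The Cox7a1 stretch held 2 CCAAT boxes, both as ATTGG on the strand shown, and Cox7a2 held 1 GC box. Atp5g1 held 5 matches to the CCAAT box, 2 of which overlap in CCAATTGG. Cox6a1 held 2 NRF1 matches, 1 ETS match, 1 CCAAT box and 2 GC boxes. Its ETS match lies in the bases that GENCODE M21 places inside the gene. Uqcrc1 and Uqcrfs1 held none of the 7 in these bases, and Uqcrc1 had 2 NRF1 matches in the 50 bases after the start.

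Windows of 300 bases around the start were found for 38 of the 49 subunit genes and for 27025 genes in all. A gene was counted where any of its windows held the motif. NRF1 motifs were found for 10 of the 38 subunit genes (26.3%), against 5.19% of all genes with a window. ETS motifs were found for 12 (31.6%), against 9.93%, and estrogen-related receptor motifs for 5 (13.2%), against 5.38%. CCAAT boxes were found for 22 (57.9%), against 41.1%, and YY1 motifs for 4 (10.5%), against 2.76%. GC boxes were found for 15 (39.5%), close to the 38.2% of all genes with a window, and the MEF2 motif for 1 (2.63%), against 4.23%. A match describes the letters of the window and is not a bound site.

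Among 17 regulators of respiratory genes, 1 rose and 2 fell, where 2.31% of all genes were called higher and 2.55% lower. Esrrg, an estrogen-related receptor that drives oxidative genes in the perinatal heart, was at 2007, 1792 and 2184 in knockouts, against 1335, 1499 and 1376 in controls. It rose, opposite in sign to the subunit genes, by 0.50 on the log2 scale (limma adjusted p = 0.00246), and the call held with each library left out (highest limma adjusted p = 0.0451) and with no robust moderation (0.0497), but not without both libraries numbered 3 (0.275). Esrrb, a related receptor, was at 202, 155 and 198 in knockouts, against 249, 298 and 270 in controls (log2 fold change -0.56, limma adjusted p = 0.0169). Ppargc1b, a coactivator of these receptors, was at 311, 185 and 204 in knockouts, against 358, 365 and 385 in controls (log2 fold change -0.70, limma adjusted p = 0.0194). The groups did not overlap in any of the 3, which the test had picked from the same libraries, so this is no further evidence. The Esrrb call was lost without any single library other than knockout 1 (highest limma adjusted p = 0.0929), and the Ppargc1b call without knockout 3 or any 1 control (highest 0.114). Both were lost with no robust moderation, at limma adjusted p = 0.0977 for Esrrb and 0.124 for Ppargc1b. The remaining 14, among them Ppargc1a, Esrra, Nrf1, Gabpa, Yy1 and Tfam, did not pass.

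Proteins that build the complexes were mostly below the threshold. Of 11 assembly factors of complexes II and III, 0 rose and 1 fell, beside 2.55% of all genes called lower. That gene was Uqcc1, which acts in the synthesis and assembly of cytochrome b, at 1108, 1112 and 1089 in knockouts, against 1374, 1377 and 1401 in controls (log2 fold change -0.33, limma adjusted p = 0.0251). The call was lost without any 1 control or knockout 3, with a highest limma adjusted p of 0.136. Of 23 tested assembly factors of complex IV, 0 rose and 1 fell. Cox10, which acts at a step in making the haem of complex IV, was at 652, 544 and 611 in knockouts, against 773, 885 and 826 in controls (log2 fold change -0.46, limma adjusted p = 0.00762). That call was lost without control 3 (limma adjusted p = 0.0604), without both libraries numbered 2 (0.112) and with no robust moderation (0.0654). Of 7 genes for ATP synthase assembly, inhibition and other small subunits, 0 rose and 1 fell. Fmc1, an assembly factor known from yeast, was at 333, 364 and 299 in knockouts, against 481, 374 and 505 in controls (log2 fold change -0.44, limma adjusted p = 0.0403), and its call was lost without knockout 1, knockout 3, control 1 or control 3 (highest 0.271), with no robust moderation (0.149) and on equal library totals (0.0555). The medians of the lists were -0.08, -0.06 and -0.11, against 0.02 over all genes tested.

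Lists of genes that feed and serve the complexes held 1 call. Of 11 genes for the synthesis of coenzyme Q, the carrier between complexes II and III, 0 rose, 1 fell and 7 had no overlap between genotypes, with a median log2 fold change of -0.21. Over all genes tested, 2.55% were called lower and 10.6% had every knockout below every control. Coq6, a hydroxylase of the coenzyme Q ring, was at 775, 785 and 685 in knockouts, against 958, 877 and 1029 in controls (log2 fold change -0.35, limma adjusted p = 0.0362). That call was lost without knockout 1, knockout 3, control 1 or control 3 (highest limma adjusted p = 0.237) and with no robust moderation (0.114). None of 7 genes for the exchange of ATP, ADP and phosphate passed, and their median was -0.09. Slc25a4, the heart's ADP/ATP carrier, was at 18710, 20573 and 18871 in knockouts and 21505, 19611 and 22028 in controls (log2 fold change -0.12, limma adjusted p = 0.473). Slc25a3, the phosphate carrier, was at 14125, 13265 and 14928 in knockouts and 14266, 13417 and 14563 in controls, with a log2 fold change of 0.00. None of 11 genes for cristae and cardiolipin passed either, and their median was -0.08. Immt, a scaffold of cristae junctions, was at 6103, 6136 and 6227 in knockouts, against 6547, 6478 and 6484 in controls, without overlap but with a log2 fold change of only -0.08.

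Complex I, the other entry point of electrons, was set beside these genes. Of 36 subunit genes measured, 0 rose, 2 fell and 33 had a log2 fold change below 0, with a median of -0.16. Over all genes tested, 2.55% were called lower and 48.1% had a log2 fold change below 0. Ndufs7, an iron-sulfur subunit, was at 1341, 1455 and 1111 in knockouts, against 1724, 1564 and 1812 in controls (log2 fold change -0.39, limma adjusted p = 0.0296). Ndufb10, an accessory subunit, was at 1541, 1549 and 1488 in knockouts, against 2024, 1688 and 2095 in controls (log2 fold change -0.34, limma adjusted p = 0.0400). Both calls were lost without knockout 1, knockout 3, control 1 or control 3, and that of Ndufb10 also without knockout 2 (highest limma adjusted p 0.203 for Ndufs7 and 0.262 for Ndufb10). With no robust moderation they were lost at 0.137 for Ndufs7 and 0.124 for Ndufb10, and with the GC and length trend removed the log2 fold changes were -0.24 for Ndufs7 and -0.21 for Ndufb10, where the Ndufb10 call was lost (limma adjusted p = 0.0571). None of the calls among the regulators, assembly factors, coenzyme Q genes and complex I subunits held without both libraries numbered 3. The median over complexes II to V was likewise -0.16, and a difference between the 2 sets was not tested.

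Of the markers of other heart and blood cell types, 3 rose, Ptprc, Emcn and Krt19, where 2.31% of all genes were called higher. The summed level of 7 erythroid markers was 99760 to 141622 in knockouts and 47775 to 131363 in controls, and none passed. That of 5 leukocyte markers was 366 to 439 in knockouts, against 232 to 347 in controls, without overlap, and 1 of them rose. Ptprc, a pan-leukocyte surface protein, was at 30, 31 and 35 in knockouts, against 15, 12 and 12 in controls (log2 fold change 1.24, limma adjusted p = 0.0091, lost without knockout 3 or control 3, highest 0.0655). For 6 endothelial markers the sums were 18663 to 22412 in knockouts and 17185 to 20790 in controls, and 1, Emcn, rose (log2 fold change 0.38, limma adjusted p = 0.0335, lost without any single library other than knockout 1, highest 0.203). For 6 fibroblast markers they were 17027 to 32554 in knockouts and 19147 to 25786 in controls, and none passed. For 6 mural cell markers they were 7073 to 9703 in knockouts and 7959 to 8166 in controls, and none passed. For 5 epicardial markers they were 4208 to 5141 in knockouts and 4291 to 5025 in controls. Of the 5, 3 had a log2 fold change below 0, against 48.1% of all genes tested, and the median was -0.21. The 1 that passed, Krt19, rose. It was at 1357, 1409 and 1419 in knockouts, against 864, 1052 and 932 in controls (log2 fold change 0.56, limma adjusted p = 0.000859), and the call held with each library left out (highest 0.024) but not without both libraries numbered 3 (0.205). None of these other markers was at 0 in all libraries. The part of cell composition in the subunit values was not tested.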

How the data were processed

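Hearts of mouse embryos were measured by stranded, polyA-selected, single-end RNA sequencing, per the labels' protocols, in 3 double knockout and 3 control libraries. Tools listed in the submitters' processing notes are STAR 2.4.2a, featureCounts 1.5.0, Trimmomatic, DESeq and DESeq2, on mm10. The sources used here give no annotation and no settings for strand or multi-mapping reads. The deposited values were treated as a score: the authors scaled the read counts by 1 factor per library and rounded them, as the values show, so a count model planned for raw counts was not used. Column totals were 19770390 to 20215282, and depth was estimated from the spacing of whole numbers, with factors of 0.899 to 1.06. Rounding hides single reads, so genes of low value carry extra error.

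The 26747 genes with a mean of at least 1 in a genotype entered a two-sided limma test (version 3.58.1, R 4.3.3) of log2(value + 1), using robust moderation and a trend of variance with level. Benjamini-Hochberg adjustment covered all of them, with 0.05 as the threshold. The code was tested on simulated data. Isoform ratios were compared by exact permutation of libraries. Coordinates, GC content and lengths came from GENCODE M21 (99.3% of identifiers matched). Alternatives were rescaling, pseudocounts of 0.5 and 8, other filters, moderation without the robust option, removal of the trend with GC content and transcript length (natural splines of 5 degrees of freedom), a block for the replicate number, and leaving out libraries. Leaving out both libraries numbered 2 was chosen after seeing the data.

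The members and gene lists were chosen with earlier results of these data known. Genes named with values in every library were those past the threshold, both genes of each isoform pair, the 2 most abundant genes of each complex and those with its highest and lowest fold change. From each list they were those past the threshold, at most 4, or else the 2 most abundant. Other genes with values were named after these were seen.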

Additional observations from a re-analysis of the deposited data

How the results depend on the processing

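Besides the fit on all libraries, 17 alternatives were run. The median log2 fold change of the subunit genes was below 0 in all of them, at -0.24 to -0.09 with 1 library left out, -0.31 without both libraries numbered 2 and -0.08 without both numbered 3. The number of subunit genes called (5) was 10 with no filter, 0 with no robust option, 3 with the replicate block, 0 to 6 with 1 library left out, 10 without both libraries numbered 2 and 0 without both numbered 3. Over all genes, 1299 were called, 350 with no robust option, 420 to 1253 with 1 library left out, 376 without both libraries numbered 2 and 38 without both numbered 3. The difference in the Cox8b to Cox8a ratio (-0.08) was -0.25 to 0.13 with 1 library left out.

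Deviations from the genotype means over 26747 genes correlated between libraries of the same number at r = -0.00, 0.02 and 0.04 for numbers 1 to 3. The libraries numbered 3 of both genotypes shared a sex pattern that differed from the rest. Whether the numbers pair libraries by litter or preparation is not known. With the replicate block limma called Cox4i2, Cox7a1 and Cyc1.

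Genes near 0 changed sign. With 1 library left out, the log2 fold change ranged over -0.064 to 0.034 for Sdhd, -0.12 to 0.11 for Cox7b, -0.13 to 0.035 for Cox7a2, -0.44 to 0.082 for Cox8b, -0.20 to 0.014 for Cox6b1, -0.040 to 0.045 for Slc25a3 and -0.38 to 0.074 for Col1a2, a fibroblast marker. For Uqcrc2 it ranged over -0.12 to 0.0073. With the GC and length trend removed it was 0.016 for Sdhd, 0.042 for Cox7a2, 0.050 for Cox8a and -0.090 for Cox7b. Median-of-ratios rescaling gave -0.0015 for Cox7b and -0.00096 for Slc25a3, and equal totals 0.0035 for Sdhd. Without both libraries numbered 3, Sdhd was 0.0049, Slc25a3 -0.015 and Col1a2 0.029, and without both numbered 2 Cox7b was -0.17. The causes of these changes were not tested. With 3 libraries per genotype and subunit changes of this size, calls near the threshold are not firm, and genes under 100 such as Cox4i2, Cox6b2 and Cox8b had the widest error.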
